A study of Mus musculus with 2 samples.

Results

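The genes that write, maintain and remove DNA methylation were followed in mouse erythroid progenitor cells: the methyltransferases Dnmt1, Dnmt3a and Dnmt3b, the maintenance cofactor Uhrf1, the dioxygenases Tet1, Tet2 and Tet3, and the glycosylase Tdg. They were chosen by name, with earlier results of these data known, and were found by Ensembl identifier in the gene tables as 8 of 43346 Ensembl genes. Total RNA had been sequenced from primary cells labelled CFU-Ery, progenitors committed to the red cell lineage, taken from male C57BL/6J mice of 5 to 6 weeks. The study held 1 group of 2 libraries, each built from 1 ng of RNA with added spike-ins and fragments of 150 to 400 nt. The biosample records differ but the donor record is shared, so separate animals are not stated, and the SDs below may reflect technical spread alone. No condition was contrasted, no test between groups was possible and no p-value is given.

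Methylation of cytosine in CpG pairs is copied to the new strand after replication by Dnmt1, which Uhrf1 brings to hemimethylated sites. Dnmt3a and Dnmt3b set methylation on unmethylated DNA. Tet enzymes oxidise 5-methylcytosine, and Tdg excises the more oxidised forms so that base excision repair can put back an unmodified cytosine. Erythroid maturation is known for a global loss of DNA methylation that accompanies rapid division, and Tet2 is known for its mutation in myeloid disease.

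The libraries summed to 143491647 (replicate 1) and 110634458 (replicate 2) expected counts, with 4717790 and 4093202 on nuclear protein-coding genes. The 8 genes together held 4095 and 3078 counts, or 0.0868% and 0.0752% of the nuclear protein-coding counts. TPM, the deposited length-scaled level of a transcript or gene, is scaled by length and over all entries. Mitochondrial genes held 89.5% of TPM in replicate 1 and 86.7% in replicate 2, and nuclear protein-coding genes 2.32% and 2.70%. By the latter share, 1 TPM corresponds to 43.1 TPM in replicate 1 and 37.0 TPM in replicate 2 once rescaled to nuclear protein-coding genes. Values without that word are on the scale of the deposited TPM, recomputed without its rounding. All 10 of 10 erythroid markers, Gata1, Klf1 and Epor among them, stood at or above 1 TPM in both libraries (sums of 388 and 447 TPM). Granulocyte and monocyte markers summed higher than these in both, with 10 of 12 at 1 TPM (sums of 554 and 751 TPM, S100a8, S100a9 and Ngp the highest), as were 6 of 8 macrophage, 4 of 8 B lymphoid and 4 of 5 eosinophil, basophil and mast cell markers (sums of 13.0 and 16.5, 18.2 and 19.8, and 10.9 and 11.9 TPM). Of the T and NK lymphoid markers 1 of 6 reached 1 TPM in both libraries, with Cd8a at 0 counts, and none of the 5 megakaryocyte, 6 stem and progenitor or 5 stromal and endothelial markers did so in both (sums between 0.640 and 3.20 TPM). On rescaled TPM, 5 of 6 T and NK lymphoid and 3 of 5 megakaryocyte markers reached 1 in both libraries. So did 5 of 6 stem and progenitor, 4 of 5 stromal and endothelial and all other listed markers, beside 44.6% of nuclear protein-coding genes. The part of these other cells in the levels below was not tested, and in such bulk RNA fewer cells that use a gene cannot be told apart from less RNA per cell.

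Dnmt1 and Uhrf1 were each assigned mainly to transcripts with different first exons, so the DNA before those starts is shown here, with the start of Dnmt3b, the least expressed of the 8 genes, for contrast. The sequences are from RefSeq on GRCm38.p6 and run 5′ to 3′ on the gene's strand, up to the first base of any annotated exon of the gene. The first Dnmt1 sequence (chr9:20952980-20953229, minus strand, 250 bases) precedes Dnmt1-201 and lies in the first intron of Dnmt1-202, and the next (chr9:20959889-20960138, minus strand, 250 bases) precedes Dnmt1-202. The first Uhrf1 sequence (chr17:56303087-56303320, plus strand, 234 bases) precedes the upstream group of starts, which includes Uhrf1-203, and the next (chr17:56304063-56304312, plus strand, 250 bases) precedes the downstream group with Uhrf1-204 and lies in the first intron of Uhrf1-203. The Dnmt3b sequence spans chr2:153649199-153649448 (plus strand, 250 bases). Capitals mark matches on either strand to the CCAAT box (CCAAT), the GC box (GGGCGG) or an E2F site (TTTCGCGC, TTTGGCGC or TTTCCCGC).
Dnmt1, before Dnmt1-201: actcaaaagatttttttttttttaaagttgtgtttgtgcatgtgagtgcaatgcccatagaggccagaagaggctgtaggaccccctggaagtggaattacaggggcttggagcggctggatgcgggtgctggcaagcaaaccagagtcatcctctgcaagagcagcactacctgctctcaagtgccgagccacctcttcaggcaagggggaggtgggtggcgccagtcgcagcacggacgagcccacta
Dnmt1, before Dnmt1-202: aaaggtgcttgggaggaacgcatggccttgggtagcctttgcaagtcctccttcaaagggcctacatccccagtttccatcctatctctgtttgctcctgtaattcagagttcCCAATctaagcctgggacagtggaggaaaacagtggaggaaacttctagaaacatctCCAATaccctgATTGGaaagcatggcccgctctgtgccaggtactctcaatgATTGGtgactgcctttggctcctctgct
Uhrf1, upstream starts: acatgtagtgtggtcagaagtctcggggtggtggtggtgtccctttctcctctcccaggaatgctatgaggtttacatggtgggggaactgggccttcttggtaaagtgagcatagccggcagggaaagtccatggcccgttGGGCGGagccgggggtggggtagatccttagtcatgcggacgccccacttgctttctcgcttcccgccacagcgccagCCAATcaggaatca
Uhrf1, downstream starts: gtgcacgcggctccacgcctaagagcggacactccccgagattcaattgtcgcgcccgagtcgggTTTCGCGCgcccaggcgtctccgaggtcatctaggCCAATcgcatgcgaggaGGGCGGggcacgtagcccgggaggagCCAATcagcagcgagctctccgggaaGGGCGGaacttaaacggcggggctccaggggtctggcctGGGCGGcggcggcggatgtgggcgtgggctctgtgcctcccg
Dnmt3b: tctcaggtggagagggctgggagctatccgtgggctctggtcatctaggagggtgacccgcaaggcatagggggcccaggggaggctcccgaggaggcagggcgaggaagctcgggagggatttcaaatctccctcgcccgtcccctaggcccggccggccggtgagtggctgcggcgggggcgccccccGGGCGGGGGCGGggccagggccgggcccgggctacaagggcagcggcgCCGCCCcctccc

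RefSeq gave 13 starts for the 8 genes. The 250 bases before the start of Dnmt1-201, the more abundant Dnmt1 transcript, held 7 CpG and no match to the motifs, while those before Dnmt1-202 held 2 CpG and 4 CCAAT boxes. Among the 32817 windows of this length before mouse RefSeq starts, the median was 6.00 CpG (quartiles 2.00 and 16.0). The downstream Uhrf1 window held 30 CpG, more than 94.1% of all windows, with 2 CCAAT boxes, 3 GC boxes and 1 E2F match, and the upstream window held 10 CpG with 1 CCAAT box and 1 GC box. The E2F motif, bound by regulators of S phase genes, was present in 1.53% of all windows and in 2 of the 13. The other E2F match lay before the start of Dnmt1-203, between 137 and 144 bases after the start of Dnmt1-201 and thus in the first exon of that transcript. The Dnmt1-203 start lies 356 bases downstream of that of Dnmt1-201. Its window also held 26 CpG, more than 90.4% of all windows, with 3 CCAAT boxes and 2 GC boxes. Dnmt3b, with almost no RNA, had 21 CpG and 3 GC boxes, 2 of them side by side, and the Tet2 window was the richest in CpG of the 13, at 51. CCAAT boxes were found in 6 of the 13 windows (33.8% of all windows), GC boxes in 10 (32.7%) and the erythroid GATA motif (AGATAA or TGATAA) in 0 (16.6%). CpG counts were above the median of all such windows in 12 of the 13. A match describes letters only, and its absence says that these letters are not in the window.

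**Figure D1:**
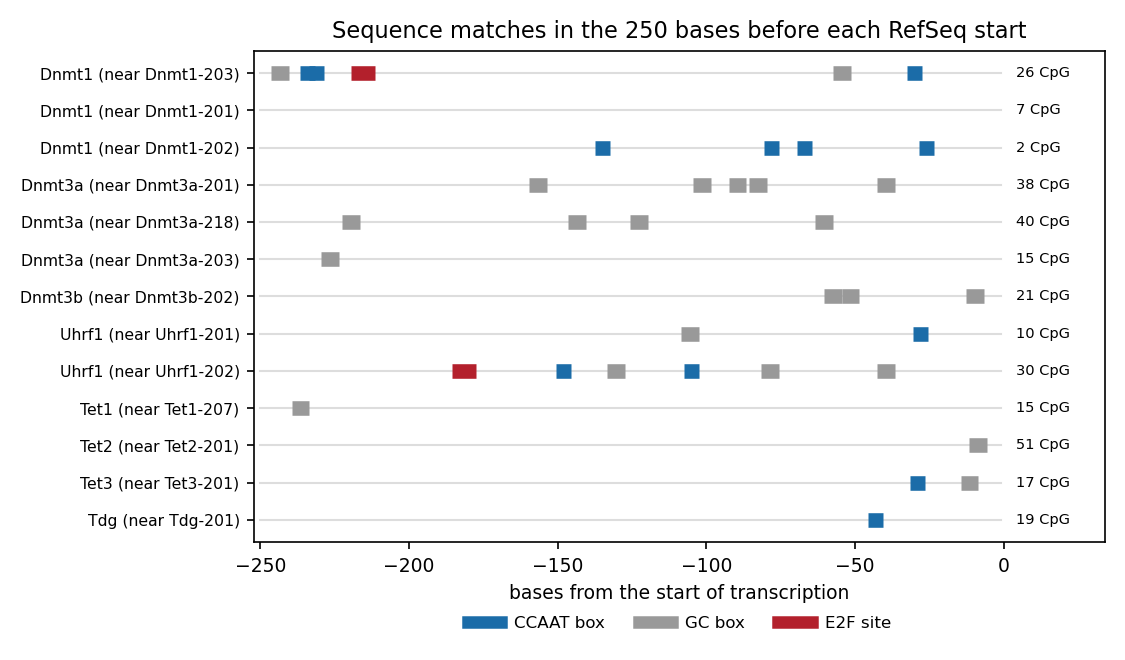
Matches to 3 motifs in the 250 bases before each of the 13 RefSeq starts of the 8 genes. The x axis gives bases from the start, each line is a start named by its nearest annotated transcript, blocks are matches on either strand, and the CpG count stands at the right; E2F matches appear in 1 Uhrf1 and 1 Dnmt1 window, and the window before Dnmt1-201 has no match.

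The maintenance pair was the most abundant of the pathway's core genes. Uhrf1 (ENSMUSG00000001228.10, chromosome 17, 56303321 to 56323486, plus strand, GRCm38), the reader of hemimethylated DNA, had 1148 expected counts in replicate 1 (95% Poisson interval 1082 to 1216) and 815 in replicate 2 (760 to 873). These gave 2.89 and 2.41 TPM, or 2.65 ± 0.343 (SD, n = 2; 107 ± 25.2 rescaled). Dnmt1 (ENSMUSG00000004099.11, chromosome 9, 20907209 to 20959888, minus strand), the maintenance methyltransferase, had 1464 (1390 to 1541) and 1266 (1197 to 1338) counts. Its levels were 2.12 and 2.35 TPM, or 2.23 ± 0.168 (89.2 ± 2.97 rescaled). The intervals cover counting error only. Uhrf1 stood above 93.9% and Dnmt1 above 92.9% of the 21461 nuclear protein-coding genes in mean TPM. Their order was not resolved: the gap of 0.414 TPM was within the sum of their SDs, 0.511, and on expected counts without length scaling the log2 ratio of Uhrf1 to Dnmt1 turned from 0.24 ± 0.30 to -0.49. By library that ratio was 0.45 (95% counting interval 0.34 to 0.56) in replicate 1 and 0.03 (-0.10 to 0.16) in replicate 2.

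The de novo methyltransferases were close to the limit of these libraries. Dnmt3a (ENSMUSG00000020661.11, chromosome 12, 3806007 to 3914443, plus strand) had 19.0 (11.4 to 29.7) and 29.0 (19.4 to 41.6) counts, giving 0.0251 and 0.113 TPM (0.0689 ± 0.0618). The TPM values were further apart than the counts because the effective length assigned to the gene was 5717 bases in replicate 1 and 2491 in replicate 2. Dnmt3b (ENSMUSG00000027478.11, chromosome 2, 153649450 to 153687730, plus strand) had 2.00 (0.242 to 7.22) and 3.00 (0.619 to 8.77) counts, giving 0.00396 and 0.00760 TPM (0.00578 ± 0.00258). Both libraries were low for both genes. In log2 TPM, Dnmt1 stood above Dnmt3a by 6.40 (5.75 to 7.13) in replicate 1 and 4.39 (3.86 to 4.97) in replicate 2, and above Dnmt3b by 9.06 (7.21 to 12.11) and 8.27 (6.72 to 10.55). Dnmt1 thus held 98.6% and 95.1% of the TPM of the 3 methyltransferase genes. The size of these gaps depended on the estimate: on posterior mean TPM, which assigns some level to transcripts without reads, Dnmt1 stood above Dnmt3a by 2.83 and above Dnmt3b by 5.23.

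Among the Tet genes, which encode the 5-methylcytosine dioxygenases, Tet3 was the most abundant. Tet3 (ENSMUSG00000034832.11, chromosome 6, 83362373 to 83459084, minus strand) had 995 (934 to 1059) and 670 (620 to 723) counts, giving 1.04 and 0.818 TPM (0.928 ± 0.155; 37.5 ± 10.2 rescaled). Tet2 (ENSMUSG00000040943.8, chromosome 3, 133463679 to 133545139, minus strand) had 177 (152 to 205) and 110 (90.4 to 133) counts, giving 0.148 and 0.118 TPM (0.133 ± 0.0214; 5.37 ± 1.44 rescaled). Tet1 (ENSMUSG00000047146.11, chromosome 10, 62804570 to 62908996, minus strand) had 68.0 (52.8 to 86.2) and 83.0 (66.1 to 103) counts, giving 0.156 and 0.0582 TPM (0.107 ± 0.0690; 4.44 ± 3.23 rescaled). Tet3 held 77.4% and 82.3% of the Tet TPM, and both its libraries lay above every Tet1 and Tet2 value. The log2 ratio of Tet3 to Tet2 was 2.81 (2.58 to 3.05) in replicate 1 and 2.80 (2.50 to 3.10) in replicate 2, and that of Tet3 to Tet1 was 2.74 (2.38 to 3.11) and 3.81 (3.48 to 4.16). Tet1 and Tet2 overlapped and had no fixed order: the log2 ratio of Tet2 to Tet1 was -0.07 (-0.49 to 0.35) in replicate 1, 1.02 (0.59 to 1.45) in replicate 2 and -0.32 on posterior mean TPM. Tet1 had more counts but a lower TPM in replicate 2, where its effective length was 13796 bases against 3300 in replicate 1.

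Tdg (ENSMUSG00000034674.14, chromosome 10, 82629828 to 82650799, plus strand), the glycosylase that removes oxidised methylcytosine, lay between Tet3 and Tet2. It had 222 (194 to 253) and 102 (83.2 to 124) counts, giving 0.608 and 0.348 TPM (0.478 ± 0.184; 19.6 ± 9.45 rescaled). Replicate 1 was the higher in both counts and TPM. The log2 ratio of Tdg to Tet3 was -0.77 (-0.99 to -0.56) and -1.23 (-1.55 to -0.93), and that of Tdg to Tet2 was 2.04 (1.75 to 2.33) and 1.56 (1.16 to 1.97). Without length scaling the last fell to 0.11 on the mean of the libraries, since the Tet2 transcript is much longer. Tdg shared 50.5% of its 25-base words with other annotated genes, 39.9% with the pseudogene Tdg-ps, which had 0 counts in both libraries.

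In the order Uhrf1, Dnmt1, Tet3, Tdg, Tet2, Tet1, Dnmt3a, Dnmt3b, 3 of the 7 neighbouring gaps exceeded the sum of both SDs: Dnmt1 to Tet3 (1.31 TPM against 0.323), Tet3 to Tdg (0.450 against 0.339) and Tdg to Tet2 (0.345 against 0.206). Tet1 could not be ordered against Tet2 or Dnmt3a, since each pair overlapped between libraries and its gap was within the summed SDs. Tet2 lay above Dnmt3a in both libraries, 0.148 and 0.118 TPM against 0.0251 and 0.113 TPM, but only narrowly in replicate 2. Dnmt3b lay below Dnmt3a in both libraries, but the gap of 0.0631 TPM was within the summed SDs of 0.0644. Dnmt1 and Uhrf1 together held 71.7% and 76.5% of the TPM of the 8 genes (74.1% ± 3.41), the Tet genes 19.2% and 16.0%, Tdg 8.71% and 5.59%, and the de novo pair 0.417% and 1.93%. Summed Dnmt TPM exceeded summed Tet TPM by 1.00 ± 0.45 in log2. Of the 8 genes, 2 (Dnmt1 and Uhrf1) reached 1 TPM in both libraries, beside 12.6% of nuclear protein-coding genes, and 7 reached 1 rescaled TPM, beside 44.6%. Dnmt3b alone did not reach it.

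**Figure D2:**
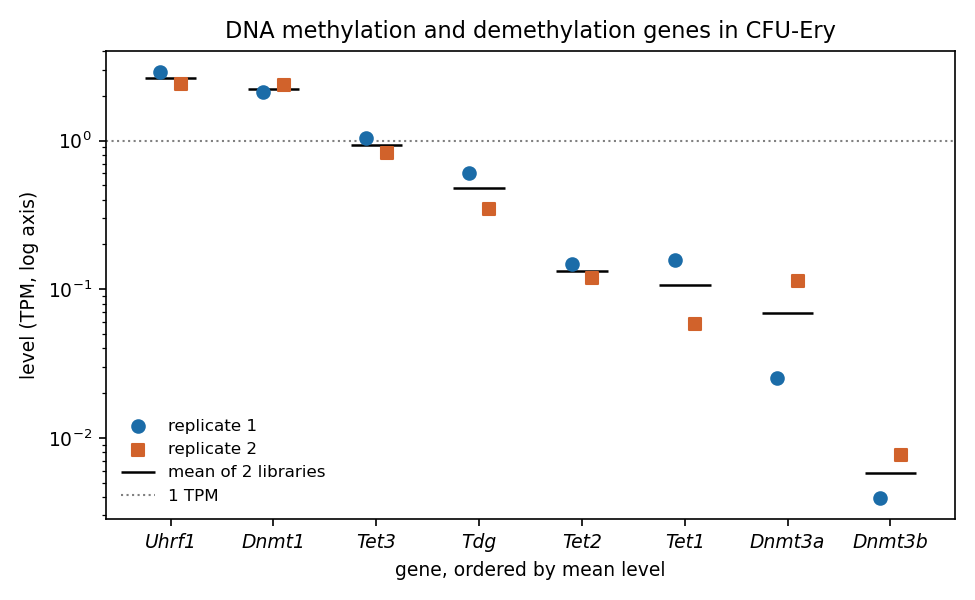
Level of each of the 8 genes in TPM (log axis), with replicate 1 as circles, replicate 2 as squares and the mean of 2 libraries as a bar; the dotted line is 1 TPM. Dnmt1 and Uhrf1 lie above the line in both libraries, Tet3 straddles it, and Dnmt3b lies lowest at 0.00396 and 0.00760 TPM.

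The transcript tables divide each gene's reads between annotated transcripts by an estimate, not by direct observation. Of 62 annotated transcripts of the 8 genes, 23 had a count in either library. Dnmt1-201 (first exon of 272 bases) held 81.1% and 78.2% of Dnmt1 TPM (79.6% ± 2.05), with 1187 and 995 counts. Dnmt1-202, which starts 6909 bases upstream with a first exon of 156 bases, held 15.3% and 21.8% (18.6% ± 4.60), with 219 and 271 counts. The proportions were alike in both libraries, and the posterior SD of the Dnmt1-202 count was 70.2 and 128 counts, so that transcript was less securely set in replicate 2. Both have 39 exons, 37 of them identical, and differ in 275 bases found only in Dnmt1-201 and 156 only in Dnmt1-202. An oocyte-specific first exon upstream of the somatic exon is known for Dnmt1; whether Dnmt1-202 starts in it was not examined. Dnmt1-203 had 57.9 counts in replicate 1 and 0 in replicate 2.

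Uhrf1 was divided mainly between 2 full-length coding transcripts whose shares were exchanged between the libraries. Uhrf1-203 held 25.5% in replicate 1 and 72.2% in replicate 2, with 326 and 601 counts. Uhrf1-204, which starts 948 bases downstream, held 64.0% and 26.4%, with 796 and 213 counts. The posterior mean counts showed the same exchange, 299 (posterior SD 65.8) and 478 (88.8) for Uhrf1-203 against 742 (71.4) and 198 (77.5) for Uhrf1-204. The transcripts have 15 of 17 exons in common, and 162 bases are found only in Uhrf1-203 and 70 only in Uhrf1-204, so the division rests on the reads over those few bases. Their mean shares, 48.9% ± 33.1 and 45.2% ± 26.6, could not be told apart. The gene total was steadier than its parts, and the retained-intron transcripts held 10.5% of it in replicate 1 and 1.39% in replicate 2. Uhrf1 also shared 24.6% of its 25-base words with the processed pseudogene Gm5648, which had 2.05 and 2.06 counts.

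Transcripts that are not protein-coding took part of the Tet3, Tet1 and Tdg levels. For Tet3, the coding transcript Tet3-202 held 55.9% and 65.4% (60.7% ± 6.73; 826 and 596 counts), and the 4-exon non-coding transcript Tet3-201, which starts within 3 bases of it, held 38.9% and 33.1% (36.0% ± 4.08; 127 and 66.7 counts). Both libraries gave this split, and with coding transcripts only the level of Tet3 was 0.635 and 0.548 TPM. For Tet1, the coding Tet1-201 held 15.5% and 99.6% (44.2 and 83.0 counts), and the short non-coding Tet1-202 held 84.5% and 0.400% (23.8 and 0.0300 counts). The effective length of a gene averages its transcripts by these shares, and Tet1-202 is only 1505 bases long. With coding transcripts only, Tet1 stood at 0.0241 and 0.0580 TPM and the higher library was replicate 2. For Tdg, the coding Tdg-208 held 75.0% and 82.1% (203 and 99.2 counts), while retained-intron transcripts held 21.5% (Tdg-205, 11.0 counts) in replicate 1 and 17.9% (Tdg-202, 2.78 counts) in replicate 2. Tet2 has 1 annotated transcript. The 2.00 and 3.00 counts of Dnmt3b were all assigned to the 20-exon Dnmt3b-206, and the reads of Dnmt3a were spread over 5 transcripts with at most 16.1 counts each, too few to rank.

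**Figure D3:**
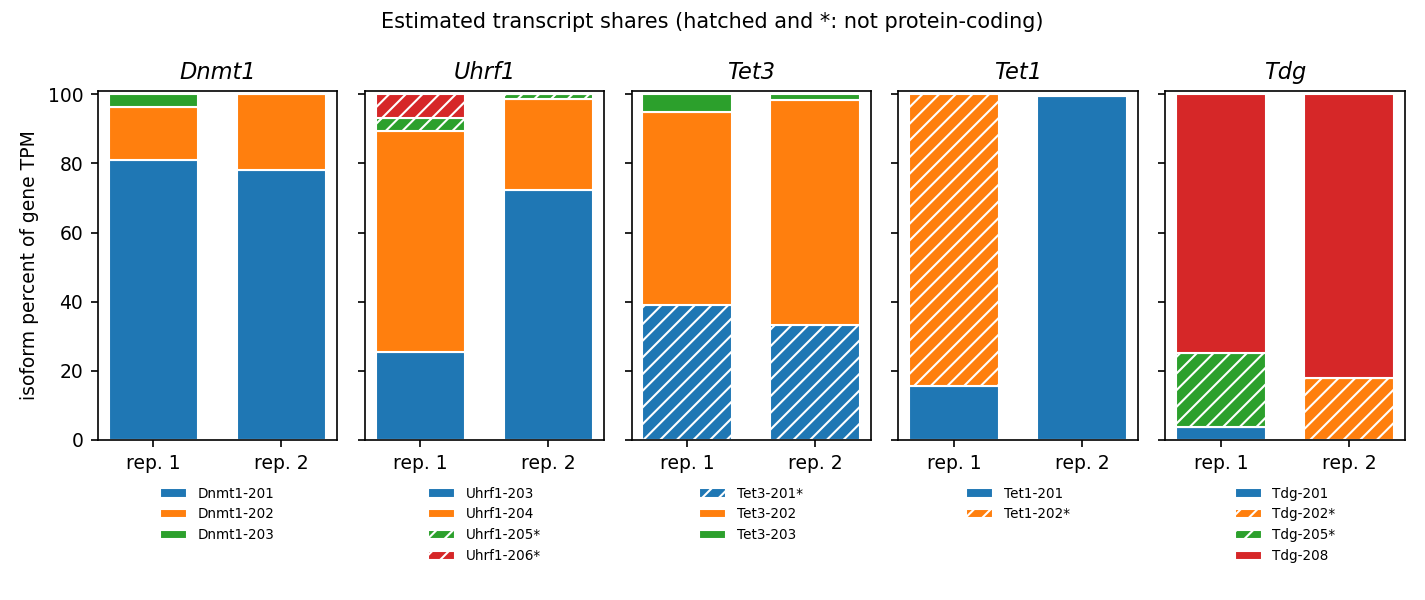
Share of each gene's TPM assigned to its transcripts (isoform percent, y axis from 0) in replicates 1 and 2, for 5 of the 8 genes; hatching and asterisks mark transcripts that are not protein-coding. Dnmt1 and Tet3 are split alike in both libraries, whereas the main transcript of Uhrf1 and of Tet1 differs between them.

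Between the libraries, genes were compared as the log2 ratio of replicate 1 to replicate 2 of expected count plus 1, centred on its median, for genes with a mean count of at least 20. Of 9878 genes 1799 (18.2%) were over 2-fold apart. Of the 7 methylation genes with enough counts 0 were, too small a set to tell from that share, and Dnmt3b was below the minimum. Dnmt1 differed least, with a ratio of 0.00, and 98.3% of the 362 genes of like count (within 1.25-fold) were further apart. Tdg differed most, with a ratio of 0.90, and 12.9% of genes of like count were further apart. Uhrf1 (0.28), Tet3 (0.36) and Tet2 (0.47) were higher in replicate 1, and Tet1 (-0.50) and Dnmt3a (-0.80) in replicate 2. For Tet1, Tet2 and Dnmt3a these sizes were near the median of genes with like counts (0.55, 0.42 and 0.97), whereas Uhrf1 and Tet3 stood above theirs (0.18 for both).

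**Figure D4:**
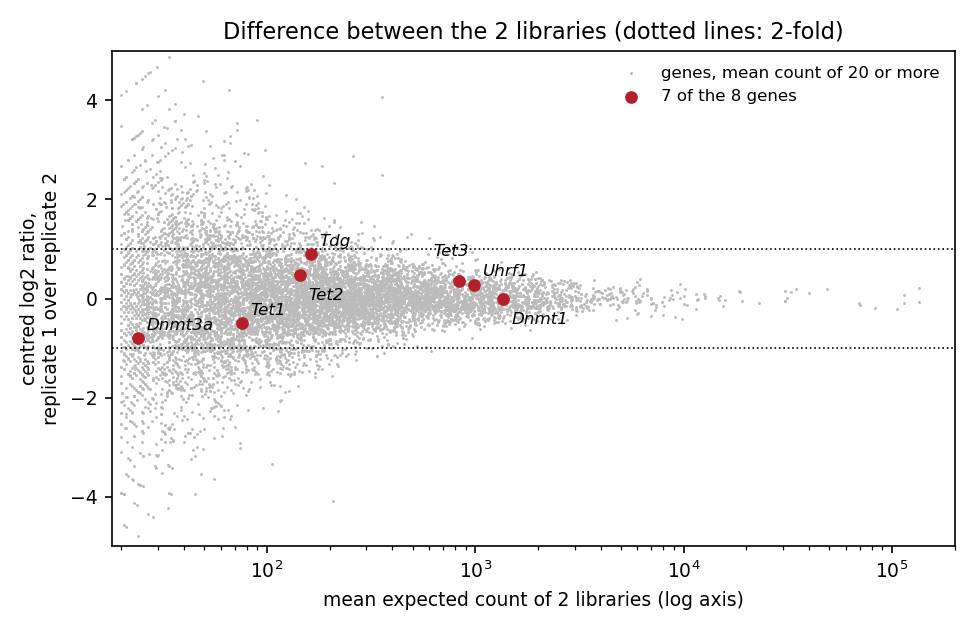
Centred log2 ratio of replicate 1 over replicate 2 (y axis) against the mean expected count (log x axis) for genes with a mean count of 20 or more, as grey points, with 7 of the 8 genes in red; 78 genes lie outside the axes. All 7 lie between the dotted 2-fold lines, with Tdg at 0.90 and Dnmt3a at -0.80 nearest to them.

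Of 56 other genes of the pathway, 14 reached 1 TPM and 44 reached 1 rescaled TPM in both libraries, beside 12.6% and 44.6% of nuclear protein-coding genes. Their median was 0.291 ± 0.0205 TPM against 0.0176 ± 0.00422 over all nuclear protein-coding genes. Of the partners of maintenance methylation, 4 of 8 reached 1 TPM, and the list's median was 2.56 ± 0.215 TPM. That median fell in a gap between the means of Hells (0.978 TPM) and Uhrf2 (4.71 TPM). No partner's mean lay in this gap, where the means of Dnmt1 and Uhrf1 stood. Pcna, the replication clamp that binds Dnmt1, had 23.9 and 24.8 TPM, and Usp7, a deubiquitinase that binds both Dnmt1 and Uhrf1, had 21.3 and 20.6 TPM; the lowest were Cdca7l (0.139 and 0.213 TPM), a Cdca7 paralogue, and Zbtb24 (0.138 and 0.194 TPM), a zinc finger protein. Uhrf2, the paralogue of Uhrf1, stood at 5.24 and 4.17 TPM, above Uhrf1 in both libraries. Their expected counts were closer, 1206 and 842 for Uhrf2 against 1148 and 815 for Uhrf1. The effective length assigned to Uhrf2 was 1740 and 1951 bases, against 3004 and 3277 for Uhrf1.

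Of the 7 genes listed as partners and protectors of de novo methylation, 2 reached 1 TPM, beside 12.6% of nuclear protein-coding genes. The list's median, 0.187 ± 0.115 TPM, was the level of Trdmt1, a tRNA methyltransferase, so it is not set against Dnmt3a or Dnmt3b. Dnmt3l, the catalytically inactive cofactor of the Dnmt3 enzymes, had 0 counts in both libraries, as did Zfp57 and Dppa3, which protect imprinted and maternal methylation. Such an absence was common: 9033 of the 21461 nuclear protein-coding genes also had 0 counts in both. The highest were Trim28, the corepressor of zinc finger proteins, at 4.64 and 6.33 TPM, and Setd2, the histone H3 lysine methyltransferase whose mark Dnmt3 enzymes read, at 1.67 and 2.07 TPM.

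Around Tet genes and Tdg, 3 of 11 Tet partners and enzymes of 2-oxoglutarate supply reached 1 TPM (median 0.201 ± 0.108). So did 2 of 14 base excision repair genes (median 0.208 ± 0.0143), beside 12.6% of nuclear protein-coding genes. Ogt, the glycosyltransferase that binds Tet proteins, had 5.44 and 5.59 TPM, more than all 3 Tet genes together, and Gadd45a, a stress protein linked to demethylation, had 3.03 and 3.18 TPM. The lowest were Cxxc4, a relative of the Tet2 DNA-binding domain, with 22.0 and 0 counts, and Gadd45b at 0.0335 and 0.0515 TPM. Neil3 was the highest DNA glycosylase of the list, at 11.5 and 10.7 TPM against 0.608 and 0.348 for Tdg, and Parp1, the sensor of strand breaks, had 1.08 and 1.12 TPM. The uracil glycosylases Smug1 (0.00240 and 0.0954 TPM) and Ung (0.0843 and 0.0303 TPM) lay below Tdg in both libraries, and Neil2 and Nthl1 had 0 counts.

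Of 7 genes listed as readers of methylated DNA or their relatives, 1 reached 1 TPM (median 0.398 ± 0.0386), beside 12.6% of nuclear protein-coding genes. It was Mbd2, which recruits the NuRD complex, at 8.49 and 11.9 TPM, ahead of its relative Mbd3 at 0.802 and 0.927. Zbtb4 (0.0916 and 0.0803 TPM) and Zbtb38 (0.136 and 0.137 TPM) were lowest. In methyl donor supply 2 of 9 reached 1 TPM (median 0.173 ± 0.0206), beside the same 12.6%. They were Mat2a, the extrahepatic S-adenosylmethionine synthetase, at 3.80 and 3.62 TPM, and its regulatory subunit Mat2b at 1.21 and 1.72. The liver genes Mat1a, Bhmt and Gnmt had 0 counts, and the lowest with counts was Mtrr (0.0191 and 0.0572 TPM). The lists differ in size and were set side by side without a test.

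**Figure D5:**
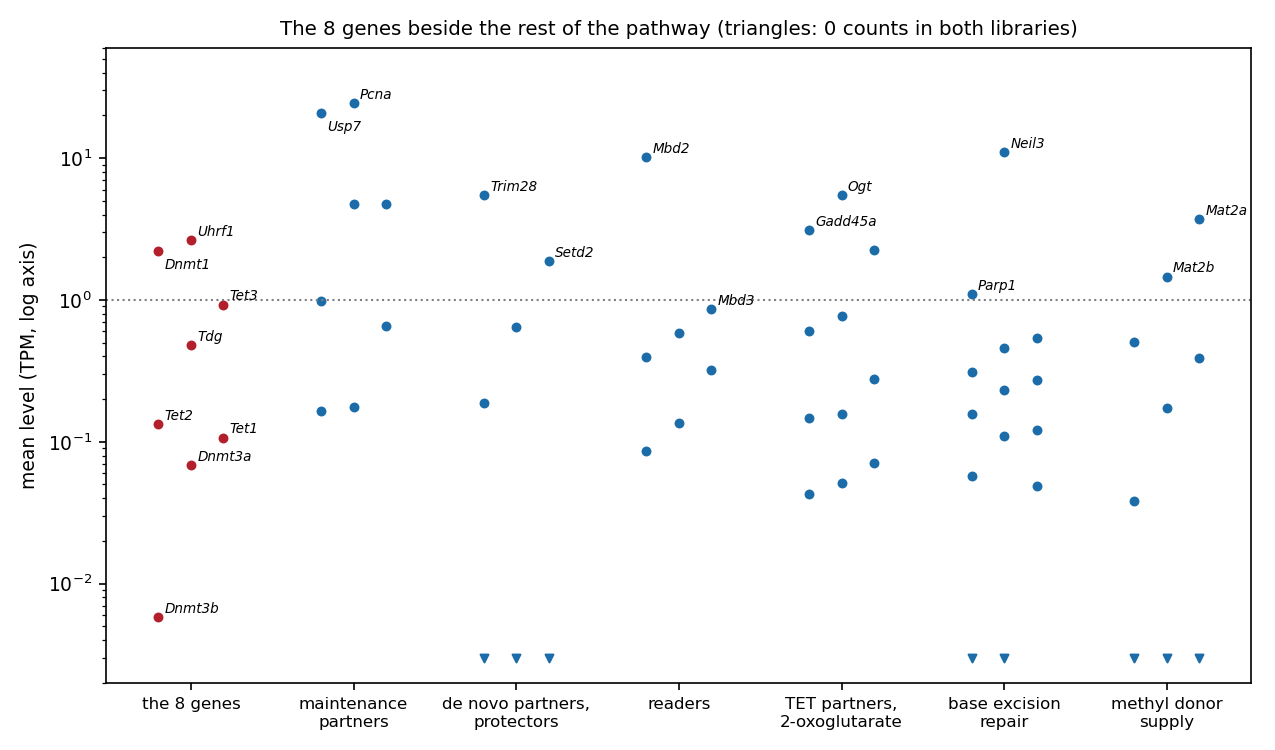
Mean TPM of 2 libraries (log axis) for the 8 genes in red and for 6 lists of other genes of the pathway in blue, with the 2 highest of each list named; triangles at the bottom are genes with 0 counts in both libraries and the dotted line is 1 TPM. The maintenance partners extend highest, to Pcna and Usp7. On the de novo list 3 of the 7 genes are at 0, beside 9033 of 21461 nuclear protein-coding genes.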

How the data were processed

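Gene and transcript tables of 2 total RNA libraries of CFU-Ery were used. Each library was quantified alone on mm10 with GENCODE release 4, per the description deposited with the tables; aligner, quantification tool and use of strand were not given in the sources used here. The deposited expected counts are estimated reads, not necessarily whole, per the file headers. TPM was deposited in a maximum likelihood form and in a posterior mean form, both scaled by effective length over all entries. The authors also gave FPKM, which was not used. The deposited isoform percent is a transcript's part of its gene's TPM, per the file headers. The posterior SD of a count was deposited by the authors and treated as a score, as were the bounds of TPM intervals, which were not used.

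TPM was recomputed from expected count and effective length to avoid rounding (largest gap 0.00487 among the 8 genes). A rescaled TPM sums over nuclear protein-coding genes alone. Names and coordinates came from GENCODE release 21 (42462 of 43346 Ensembl genes matched), and 62 transcripts of the 8 genes matched. The gene lists and the 8 genes were chosen with earlier results of these data known. Named were the 8 genes, the 2 highest and 2 lowest of each list with those at 0 counts, and transcripts with at least 10% of a gene. Uhrf2, Hells, Trdmt1, Smug1, Ung, Mtrr, Dnmt1-203 and the Dnmt3a transcripts were outside that rule and were chosen after their values were seen. Neighbours in the order of levels were told apart where their gap exceeded the sum of their SDs. A chi-square of 137 per degree of freedom showed that the libraries were not copies of each other. edgeR and DESeq2 supplied alternative scalings of the counts only, which were rounded for DESeq2. Alternatives are given in the closing section. Columns of other samples numbered 0. Software was DESeq2 1.42.0 and edgeR 4.0.16 in R 4.3.3, and matplotlib 3.10.9, scipy 1.17.1, pandas 2.3.3 and numpy 2.4.6 in Python 3.11.15.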

Additional observations from a re-analysis of the deposited data

How the results depend on the processing

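With 1 group and no contrast, each result is a level, a ratio or a count, and low depth limits Dnmt3a and Dnmt3b most. No paired analysis was possible because the labels give 1 group of 2 libraries. Of 40 log2 ratios under alternatives other than leaving out a library, 19 stayed within 1 SD, 19 moved and 2 reversed; the cause was not tested. With 2 libraries, leaving out 1 keeps every value within 1 SD by arithmetic and shows no stability. On rescaled TPM, 7 of the 8 genes and 44 of the 56 other pathway genes were detected, against 2 and 14. Over nuclear protein-coding genes the share was 44.6% against 12.6%. On posterior mean TPM the log2 ratios were 2.83 for Dnmt1 to Dnmt3a, 5.23 for Dnmt1 to Dnmt3b, 2.40 for Dnmt3a to Dnmt3b, -0.32 for Tet2 to Tet1 (reversed), 2.83 for Tet3 to Tet2, 2.27 for Tdg to Tet2 and -0.56 for Tdg to Tet3. On expected counts without length scaling they were -0.49 for Uhrf1 to Dnmt1 (reversed), 2.55 for Tet3 to Tet2, 0.11 for Tdg to Tet2, -2.44 for Tdg to Tet3 and 0.42 for Dnmt to Tet sums. On log2(TPM + 0.1) they were 3.84 for Dnmt1 to Dnmt3a, 4.46 for Dnmt1 to Dnmt3b, 0.62 for Dnmt3a to Dnmt3b, 2.35 for Tet3 to Tet1, 2.14 for Tet3 to Tet2 and 1.28 for Tdg to Tet2. With protein-coding transcripts only, an alternative chosen after seeing the data, they were 1.82 for Tet2 to Tet1, 2.16 for Tet3 to Tet2 and 1.59 for Dnmt to Tet sums. Leaving out each replicate in turn gave -0.07 to 1.02 for Tet2 to Tet1, which was -0.07 without replicate 2. On posterior means 15 of 18 transcript shares stayed within 1 SD and 3 moved: Dnmt1-201 to 75.8%, Tdg-208 to 51.2% and Dnmt3b-206 to 4.79%. Genes over 2-fold apart between the libraries numbered 61 on log2(TPM + 1), 1021 on log2(TPM + 0.1), 299 of 5594 at a mean count of at least 100 and 5978 of 15561 without a minimum, against 1799 of 9878. Of the methylation genes that met the minimum, 0 were apart in these settings and with edgeR and DESeq2 scaling: 5 were compared at the minimum of 100, 8 without a minimum and 7 otherwise.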
